A study of Mus musculus with 24 samples.

Results

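The clustered histone genes are the small, repeated genes that encode the linker histone H1 and the core histones H2A, H2B, H3 and H4. They were taken as the rows of the deposited gene table whose symbol has the form Hist1h to Hist4h, keeping for each symbol the row with the most normalised reads. This gave 9 genes among 20633 rows (19409 symbols), namely 3 for H1, 2 for H2A, 2 for H2B, 2 for H4 and 0 for H3. All 9 had enough reads to be tested. The RefSeq annotation of the same genome build holds 70 genes with a former symbol of this form, so the table covers a small part of the family and most clustered histone genes were not analysed here.

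The libraries came from mouse embryonic stem cells (ESCs) on an E14 background, in which Polycomb repressive complex 1 (PRC1), the enzyme that places ubiquitin on histone H2A at lysine 119, could be altered on demand. The PRC1CKO line (clone B9) carried Ring1a-/-, Ring1bfl/fl and Rosa26::ERT2-Cre, so that RING1A was absent in every library and Cre activated by 4-hydroxytamoxifen (OHT) deleted Ring1b. The PRC1CPM line (clone 41) carried the Ring1aI50A/D53K allele together with a switchable allele written Ring1b(WT->I53A/D56K)fl/fl, and also Rosa26::ERT2-Cre, so that RING1A was catalytically inactive in every library and OHT replaced wild-type RING1B with an inactive form. Cre was expressed from the Rosa26 locus in every cell, and OHT itself was given only to the treated groups. Each line was either left untreated or given 800 nM OHT for 72 h, with 3 libraries per condition and 12 in all. Each line is a single clone, and the 3 libraries of a condition were biological replicates by the study's own account, with no separate cultures named in the labels, so the p-values measure the spread between these samples. RNA was taken from bulk cultures mixed with Drosophila SG4 cells as a spike-in, depleted of ribosomal RNA and sequenced with no poly(A) selection. The libraries held 14668159 to 27016156 reads on genes.

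Histone genes of this family are switched on together as cells enter S phase, when new DNA has to be packed into chromatin. Their messages carry no introns as a rule and end in a short stem-loop in place of a poly(A) tail. The protein SLBP binds that stem-loop and carries the message through processing, export and translation, while NPAT drives transcription from the clusters. A few members follow another programme, among them the testis genes Hist1h1t and Hist1h2aa, which are known from the spermatocyte. Because the libraries were not selected for poly(A), messages without a tail were counted.

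All 9 genes carry the stem-loop, found in the GRCm38.p6 sequence as a stem of 6 base pairs around a loop of 4 bases. The 4 forms are shown because this element is what the members share that their symbols do not state, with the stem in capitals and the loop in lower case.
Hist1h1a, Hist1h1b, Hist1h2aa, Hist1h2be and Hist2h2bb: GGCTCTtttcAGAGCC
Hist1h1t and Hist2h2ab: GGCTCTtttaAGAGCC
Hist4h4: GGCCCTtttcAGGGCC
Hist2h4: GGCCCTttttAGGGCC
In 8 genes the loop lay 5 to 7 bases before the end of the counted transcript. The exception was Hist1h2be, whose counted transcript ran on for 1861 bases past the loop.

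The positions below are those of the table (mm10, 1-based). On chromosome 13, the site of the large Hist1 cluster, lay Hist1h1b (chr13:21779832-21780625, minus strand), Hist1h2be (chr13:23583670-23621094, minus), Hist1h1t (chr13:23695811-23696545, plus), Hist1h1a (chr13:23763668-23764412, plus) and Hist1h2aa (chr13:23934462-23934913, plus). On chromosome 3 lay the Hist2 genes Hist2h2ab (chr3:96219916-96220353, plus), Hist2h4 (chr3:96262934-96263317, minus) and Hist2h2bb (chr3:96269700-96270192, plus). Hist4h4 (chr6:136803993-136804431, minus) lay on chromosome 6. Hist1h2be was counted over 37425 bases with 2 exons and a long intron that holds the opposite-strand noncoding gene Gm33387. The other 8 have 1 exon each. Hist1h2aa lies wholly within an intron of the noncoding gene Gm33516 on the same strand, so its reads and intronic reads of Gm33516 cannot be told apart. The use of strand in the authors' counting is not given in the sources used here.

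Short reads can separate the members from other genes over nearly all of their length. Of all 80-base windows in each gene, 100% occurred once in the genome for 7 members, 98.1% for Hist1h2be and 93.0% for Hist2h2ab. Among 60 clustered histone genes of the annotation that were not in the table, the median was 48.9%, and 31 had under 50% of their windows unique. The authors' table left out similar transcripts and poorly mappable short genes, and reads of near-identical copies were kept only where they mapped uniquely.

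Promoters (250 bases before the RefSeq start site, GRCm38.p6) were found for 8 members. Those of the 2 testis genes, which gave the largest changes below, are printed beside that of Hist1h1a, an abundant H1 gene of dividing cells. Capitals mark matches on either strand to CCAAT, ATTTGCAT (the octamer of H2B promoters), TATAAA and AAACACA (the H1 box), none of which overlapped another.
Hist1h2aa, chr13:23934187-23934436, plus strand: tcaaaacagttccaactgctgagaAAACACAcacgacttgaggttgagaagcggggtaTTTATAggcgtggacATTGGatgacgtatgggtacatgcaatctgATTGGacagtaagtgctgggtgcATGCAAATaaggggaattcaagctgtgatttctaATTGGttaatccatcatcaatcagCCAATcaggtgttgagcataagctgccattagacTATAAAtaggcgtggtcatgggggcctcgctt
Hist1h1t, chr13:23695561-23695810, plus strand: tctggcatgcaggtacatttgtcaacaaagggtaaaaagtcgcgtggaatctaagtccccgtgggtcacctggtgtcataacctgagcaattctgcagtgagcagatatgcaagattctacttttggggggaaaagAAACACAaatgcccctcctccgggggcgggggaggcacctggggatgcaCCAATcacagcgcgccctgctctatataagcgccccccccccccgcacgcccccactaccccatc
Hist1h1a, chr13:23763418-23763667, plus strand: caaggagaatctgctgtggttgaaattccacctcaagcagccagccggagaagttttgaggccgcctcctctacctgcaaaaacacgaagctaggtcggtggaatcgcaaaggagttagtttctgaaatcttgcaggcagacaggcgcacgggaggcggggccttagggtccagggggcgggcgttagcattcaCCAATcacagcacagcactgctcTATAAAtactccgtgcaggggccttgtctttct
CCAAT was in 7 of the 8 promoters and in 33.85% of all 32851 promoters of the reference. The octamer was in 2 of 8 (1.601% of all), TATAAA in 4 (12.37%) and AAACACA in 3 (6.246%). The Hist1h2be promoter in these counts, with 3 CCAAT matches and no octamer, precedes its long counted transcript (chr13:23621095-23621344). Its stem-loop lies far from there, at chr13:23585531-23585546, and a promoter nearer the stem-loop was not examined. The E-box CACGTG (6.021% of all) and GCGGGAA, an E2F site (3.817% of all), were in 0 of 8. The Hist1h2aa promoter held 4 matches to CCAAT and the only octamer outside Hist2h2bb. It faces the start of H2bc1, the testis H2B gene on the opposite strand, whose start site lies 306 bases from that of Hist1h2aa in the table. H2bc1 was not analysed here. CpG dinucleotides numbered 5 to 12 in the 8 promoters, against a median of 6 in all promoters.

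The targeted genes were checked first. Rnf2, which encodes RING1B, had 1756, 1436 and 1385 normalised reads in untreated PRC1CKO and 1489, 1565 and 1585 after OHT, and in PRC1CPM 1850, 1659 and 1578 untreated against 1724, 1295 and 1513 after OHT. Ring1, which encodes RING1A, ranged from 165.7 to 312.8 in PRC1CKO and from 111.3 to 181.9 in PRC1CPM. Neither gene was called changed in either OHT comparison. The engineered alleles alter or remove only part of each gene while reads were counted over the whole gene body, so these values do not check the labels.

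Libraries numbered 1 stood high on the deposited spike-in scale. In untreated PRC1CKO the total over all genes was 24958331 normalised reads in replicate 1 against 17618069 and 17755844 in the others. Replicate 1 also held the highest value of all 9 histone genes in untreated PRC1CKO, of 9 in treated PRC1CKO, of 8 in untreated PRC1CPM and of 2 in treated PRC1CPM. Results that rest on this are given below without those libraries. Shares of each library's reads are given for Hist1h2aa in PRC1CKO and for the sums by histone type. They are also given for members whose groups separated by shares but overlapped on the deposited scale. How many of all genes separate by shares was not counted. Such separations, of members or of type sums, are therefore description only.

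Per kilobase of exon, the histone genes fell into an abundant and a scarce set. Averaged over the 12 libraries, Hist2h2bb (H2B) led at 6373 normalised reads per kb, followed by the linker histone genes Hist1h1a at 4664 and Hist1h1b at 3188 and the H4 genes Hist2h4 at 2196 and Hist4h4 at 2188. The scarce set was Hist1h2aa (H2A) at 599 reads per kb, Hist1h2be (H2B) at 457, Hist2h2ab (H2A) at 280 and Hist1h1t (testis H1) at 219. The libraries of the lowest abundant gene and the highest scarce gene did not overlap in any of the 4 conditions. Within the abundant set, the 2 H4 genes overlapped in every condition and changed places between lines. Hist2h2bb and Hist1h1a overlapped in all conditions but untreated PRC1CPM. In the scarce set, all 4 genes overlapped their neighbours in untreated PRC1CKO, with Hist1h1t last at 267 per kb. In untreated PRC1CPM Hist1h2aa was already first at 546 per kb, overlapping Hist1h2be, and Hist2h2ab was last at 290, overlapping Hist1h1t. After OHT the 4 genes separated in both lines, Hist1h2aa standing first at 742 per kb in PRC1CKO and 811 in PRC1CPM, and Hist1h1t last at 155 and 149. The place of Hist1h2be in this order rests on the length used, since its reads were counted over 37425 bases, intron included, and divided by its 2480 exonic bases. By read count alone its mean of 1133 lay above those of Hist2h4 (843) and Hist4h4 (960).

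**Figure D1:**
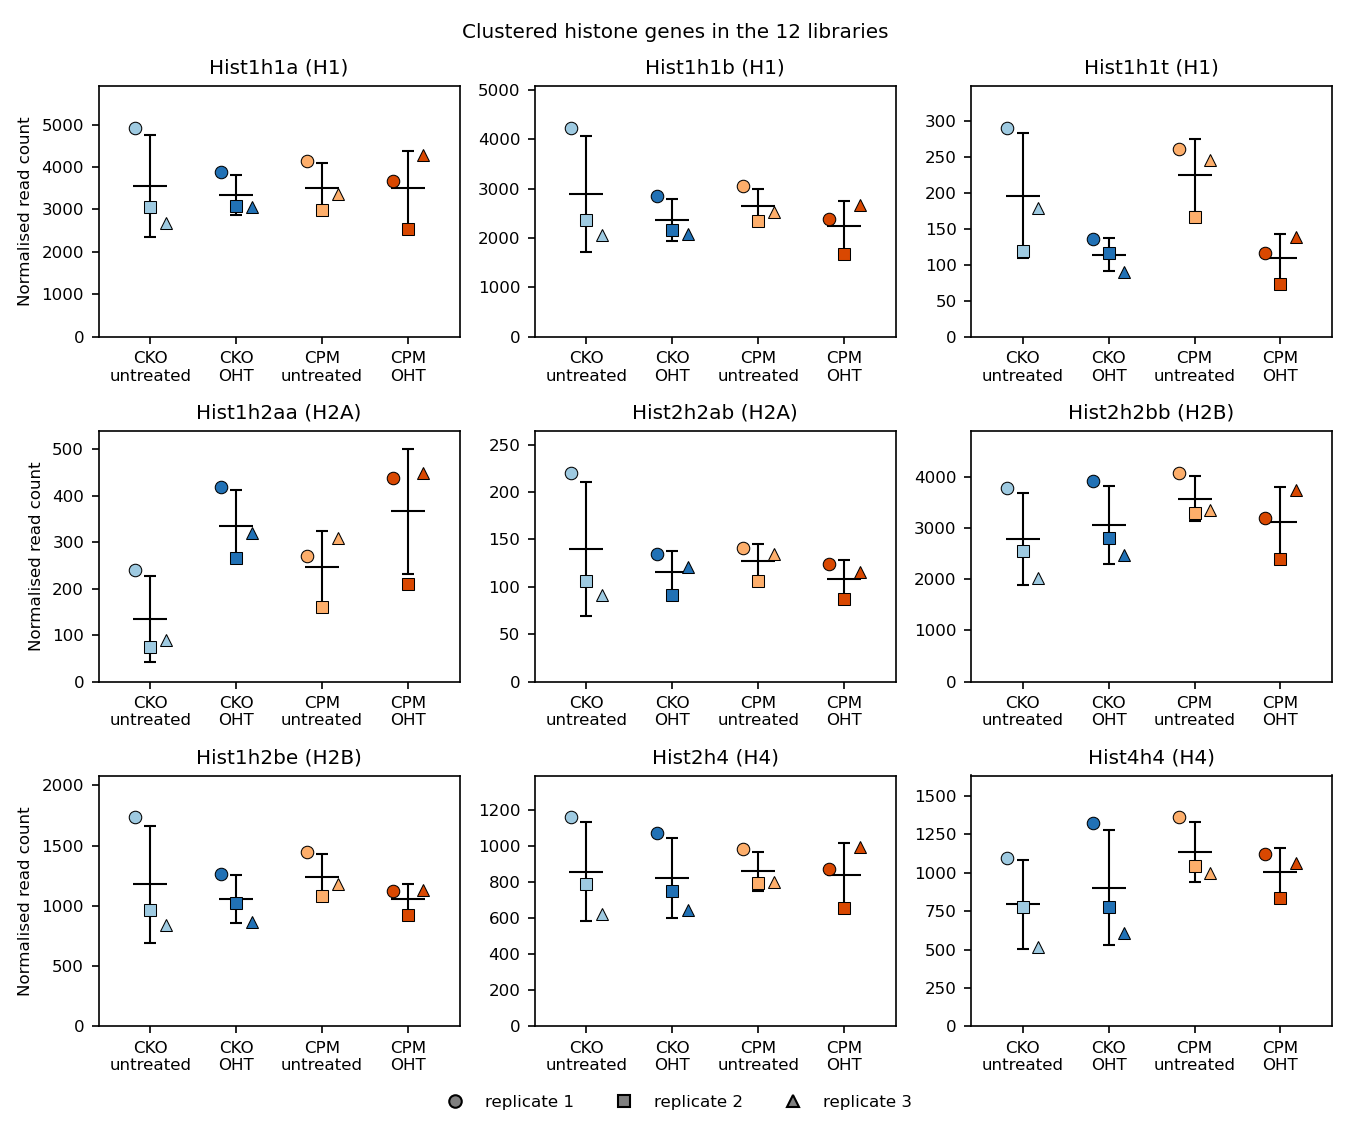
Normalised read count (vertical axis, linear from 0) of the 9 clustered histone genes in each of the 12 libraries, by condition. Circles, squares and triangles are replicates 1, 2 and 3, and bars give the mean ± SD (n = 3). Hist1h2aa is higher in all 3 treated than in all 3 untreated PRC1CKO libraries, and Hist1h1t is lower in all 3 treated than in all 3 untreated PRC1CPM libraries.

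Hist1h2aa, the testis H2A gene, rose on OHT in PRC1CKO. The design cannot tell loss of PRC1 from an effect of OHT or Cre itself. It had 241, 74 and 90 normalised reads in untreated PRC1CKO cells and 419, 267 and 320 after OHT. The lowest treated library thus exceeded the highest untreated one. The fold change was 2.80 (95% interval 1.76 to 4.46, log2 1.49 ± 0.33 SE, limma adjusted p = 0.00053). The call held without any 1 of the 12 libraries, with a log2 fold change of 1.16 to 2.00 and a largest adjusted p of 0.013. With replicates 2 and 3 alone it was 1.83 on the log2 scale. As reads per 1000000 reads on genes (RPM), which need no spike-in, it was 9.67, 4.19 and 5.05 untreated and 19.0, 13.7 and 15.3 treated. These values rest on 96 to 464 reads per library.

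In PRC1CPM, where OHT left inactive RING1A and RING1B in place, Hist1h2aa had 271, 160 and 309 normalised reads untreated and 438, 211 and 450 after OHT. The treated library was the higher in each of the 3 same-numbered pairs, while the groups as a whole overlapped, since treated replicate 2 lay below untreated replicates 1 and 3. The fold change of 1.46 (95% interval 0.914 to 2.32, limma adjusted p = 0.38) was not called. With the replicate block the adjusted p was 0.015, and the gene missed the call on the 1.5-fold threshold alone. Scaled to Drosophila totals without the genomic DNA correction, it was 0.84 on the log2 scale with adjusted p = 0.040. The 2 responses were compared directly. Their difference was -0.94 on the log2 scale (95% interval -1.89 to 0.01, limma adjusted p = 1.00). With the replicate number as a block the adjusted p was 0.024, and 0.14 with TMM and the block together, so whether the rise differed between lines depended on the model. The Hist1h2aa level after OHT was 335 ± 78 in PRC1CKO and 367 ± 135 in PRC1CPM (SD, n = 3), with a log2 difference of 0.07 (95% interval -0.60 to 0.74). The untreated level was 135 ± 92 in PRC1CKO and 247 ± 77 in PRC1CPM, a log2 difference of 1.02 ± 0.33 SE (adjusted p = 0.088). That baseline difference was called with the replicate block (adjusted p = 2.3e-06), with TMM and the block (0.90, adjusted p = 0.0061), without untreated PRC1CKO replicate 1 (1.54, adjusted p = 0.0014), without untreated PRC1CPM replicate 2 (1.30, adjusted p = 0.00554) and with replicates 2 and 3 alone (1.44, adjusted p = 0.018).

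Hist1h1t, the testis linker histone gene, moved the other way. In PRC1CPM it had 261, 167 and 245 normalised reads untreated and 116, 73 and 139 after OHT. No treated library reached the lowest untreated one. The treated level was 0.48 of the untreated level (95% interval 0.30 to 0.76, log2 -1.06 ± 0.33 SE, limma adjusted p = 0.019). The call held in 9 of 12 fits that left out a single library and in 6 of 9 other settings. Among those 6 were the replicate block, TMM with and without the block, edgeR and DESeq2. The call was lost without untreated PRC1CPM replicate 1 (log2 -0.93, adjusted p = 0.058), without untreated replicate 3 (-0.98, adjusted p = 0.096), without treated replicate 2 (-0.79, adjusted p = 0.14), with replicates 2 and 3 alone (-1.001, adjusted p = 0.054), with no filter on low values (-1.06, adjusted p = 0.053) and on Drosophila totals alone (-0.76, adjusted p = 0.10).

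In PRC1CKO, Hist1h1t had 290, 119 and 178 normalised reads untreated and 136, 117 and 90 after OHT. On the deposited scale untreated replicate 2 lay within the treated range, so the groups overlapped. As shares they did not, at 11.6, 6.77 and 10.0 RPM untreated against 6.14, 5.99 and 4.29 treated. The log2 change of -0.70 (95% interval -1.36 to -0.04, limma adjusted p = 0.14) was not called. Under TMM scaling, which sets most genes to no change, it was -0.82 with adjusted p = 0.012. With the replicate block the adjusted p was 0.0039, and 0.0044 with TMM and the block, although the numbers were not taken to pair the PRC1CKO samples. Each treated library lay below the untreated one of its number. Without untreated PRC1CKO replicate 2 the change was -1.01 with adjusted p = 0.030, without untreated PRC1CKO replicate 1, the high library, it was -0.37 with adjusted p = 0.46, and with replicates 2 and 3 alone it was -0.51 with adjusted p = 0.32. The treated levels of the lines were 114 ± 23 and 109 ± 34 (SD, n = 3). The difference between the 2 responses was -0.35 on the log2 scale (95% interval -1.28 to 0.58).

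**Figure D2:**
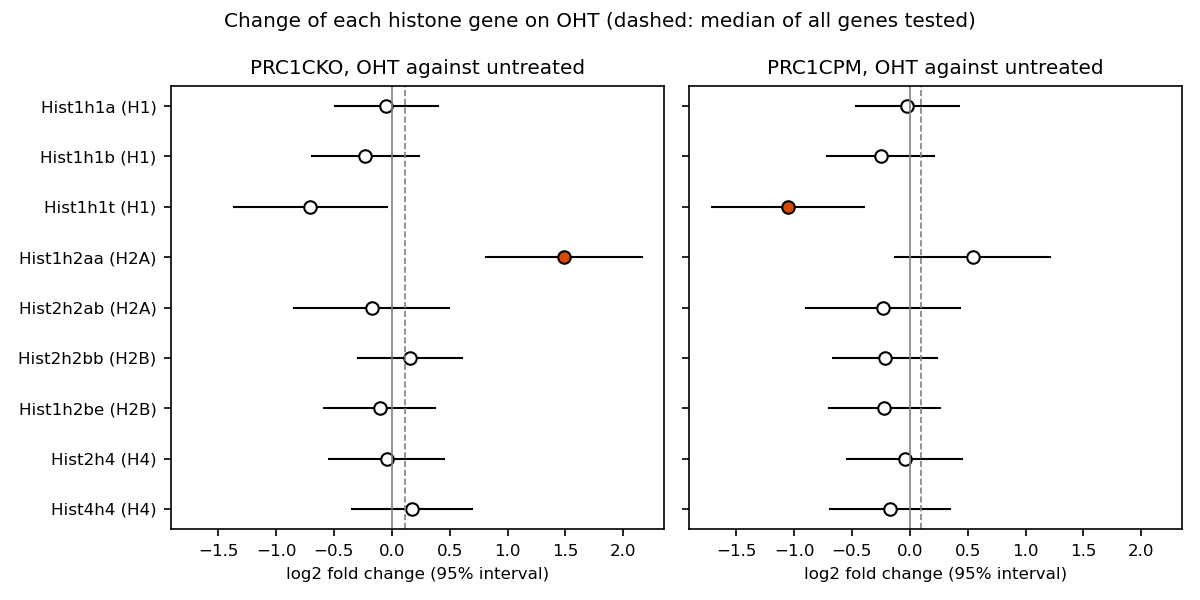
Log2 fold change on OHT (horizontal axis) of each clustered histone gene in PRC1CKO (left) and PRC1CPM (right), with 95% intervals from limma. Filled points were called and open points were not, and the dashed line is the median of all 16940 genes tested. Hist1h2aa stands to the right in PRC1CKO at 1.49 and Hist1h1t to the left in PRC1CPM at -1.06, while the other 7 genes lie between -0.25 and 0.17.

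A gene was called where its Benjamini-Hochberg adjusted p was under 0.05 and its fold change above 1.5. In PRC1CKO, 1 of the 9 histone genes was called higher and 0 lower by limma, where 16.5% of all 16940 genes tested were called higher and 3.09% lower. In PRC1CPM, 0 were called higher and 1 lower, against 13.1% and 1.4% of all genes (2226 and 237 genes, or 3033 and 461 with the replicate block). At an unadjusted p under 0.05 the numbers were 2 and 1 genes. edgeR and DESeq2 each called 1 gene in each line. The median log2 change of the 9 genes was -0.05 in PRC1CKO and -0.22 in PRC1CPM, beside 0.12 and 0.10 for all genes tested. Under TMM the medians of the 9 were -0.17 and -0.32, beside -0.002 and -0.007 for all genes. On Drosophila totals alone they were -0.19 and 0.08, beside -0.03 and 0.40. Of all calls in PRC1CKO 84.2% were higher on the deposited scale, 71.5% under TMM and 76.0% on Drosophila totals alone. In PRC1CPM the shares were 90.4%, 80.1% and 98.0%. In the same order, 524, 1133 and 698 genes were called lower in PRC1CKO, and 237, 595 and 75 in PRC1CPM.

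The other linker histone genes were not called in any setting that was run. Hist1h1b had an adjusted p under 0.05 under TMM with the replicate block, at log2 changes of -0.35 and -0.36 (adjusted p = 0.035 and 0.036) that were below the 1.5-fold threshold. Hist1h1b, an H1 gene of proliferating cells, had 4230, 2369 and 2055 normalised reads in untreated and 2853, 2156 and 2074 in treated PRC1CKO, and 3043, 2341 and 2529 against 2388, 1682 and 2659 in PRC1CPM. Its log2 changes were -0.23 (95% interval -0.69 to 0.23) and -0.25 (95% interval -0.71 to 0.21). Hist1h1a had 4925, 3065 and 2683 untreated and 3894, 3079 and 3058 treated in PRC1CKO. In PRC1CPM it had 4148, 2991 and 3370 against 3667, 2545 and 4273. On the deposited scale treated and untreated libraries overlapped for both genes in both lines. As shares, Hist1h1b in PRC1CPM did not overlap, at 124.9, 122.7 and 127.2 RPM untreated against 91.6, 93.9 and 121.7 treated, replicate 3 being just below. The log2 changes of Hist1h1a were -0.05 (95% interval -0.49 to 0.40) and -0.02 (95% interval -0.47 to 0.42).

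The H2B genes were not called in any setting either. Hist2h2bb, the most abundant member per kb, had 3782, 2556 and 2036 normalised reads untreated and 3930, 2803 and 2481 treated in PRC1CKO. In PRC1CPM the values were 4094, 3308 and 3352 against 3208, 2398 and 3754. Its log2 changes were 0.16 (95% interval -0.29 to 0.61) and -0.22 (95% interval -0.67 to 0.23). Hist1h2be ranged from 838 to 1735 in PRC1CKO and from 921 to 1451 in PRC1CPM, with log2 changes of -0.10 and -0.22. Under TMM with the replicate block Hist1h2be in PRC1CPM was -0.33 with adjusted p = 0.047, below the fold threshold. On the deposited scale treated and untreated libraries overlapped for both H2B genes in both lines. As shares, Hist1h2be in PRC1CPM did not overlap, at 59.5, 56.6 and 59.4 RPM untreated against 43.2, 51.4 and 51.8 treated.

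Hist2h2ab, the H2A gene of the Hist2 cluster, was scarce, and on the deposited scale its treated and untreated libraries overlapped in both lines. As shares, Hist2h2ab in PRC1CPM did not overlap, at 5.77, 5.58 and 6.75 RPM untreated against 4.74, 4.84 and 5.27 treated. Its normalised reads were 220, 106 and 91 untreated and 135, 92 and 120 treated in PRC1CKO, and 141, 106 and 134 against 124, 87 and 115 in PRC1CPM. Its log2 changes of -0.17 (95% interval -0.84 to 0.49) and -0.23 (95% interval -0.90 to 0.43) had the widest intervals of the 7 uncalled genes.

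The H4 genes encode the same protein from different chromosomes. Hist4h4 had 1093, 777 and 515 normalised reads untreated and 1327, 778 and 608 treated in PRC1CKO, and 1362, 1044 and 1002 against 1122, 833 and 1066 in PRC1CPM. Hist2h4 had 1157, 788 and 621 against 1069, 747 and 645 in PRC1CKO, and 981, 794 and 798 against 874, 653 and 994 in PRC1CPM. Replicate 1 was the highest in every condition but treated PRC1CPM for Hist2h4, and on the deposited scale the groups overlapped throughout. As shares, Hist4h4 in PRC1CPM did not overlap, at 55.9, 54.7 and 50.4 RPM untreated against 43.0, 46.5 and 48.8 treated. The log2 changes were 0.17 and -0.17 for Hist4h4 and -0.05 and -0.04 for Hist2h4. The signs of these small changes depended on scale. On Drosophila totals alone all 7 uncalled genes had a positive log2 change in PRC1CPM, where the median of all genes moved to 0.40.

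**Figure D3:**
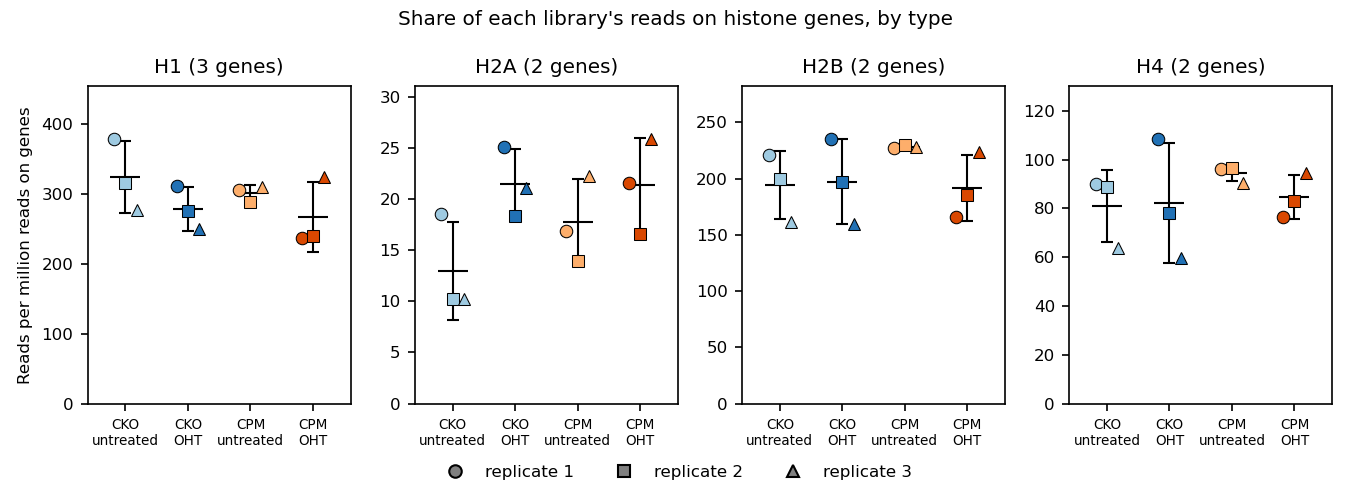
Reads on the histone genes of each type per 1000000 reads on all genes (RPM, vertical axis, linear from 0) in each library, with the mean ± SD (n = 3). The H2A panel is the one in which PRC1CKO treated and untreated libraries nearly separate, from 10.2, 10.2 and 18.5 untreated to 18.4, 21.0 and 25.1 treated, and the H2B panel shows the 3 treated PRC1CPM libraries, up to 224, below the untreated ones, from 228.

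Summed by histone type, treated and untreated shares of library reads overlapped for every type in both lines except H2B in PRC1CPM. H1 genes took 324 ± 51 RPM in untreated and 279 ± 31 in treated PRC1CKO, and 301 ± 11 and 267 ± 49 in PRC1CPM (SD, n = 3). H2B genes took 194 ± 30 and 197 ± 38, and 229 ± 1.3 and 192 ± 29. In PRC1CPM the H2B shares were 228, 230 and 228 RPM untreated and 166, 185 and 224 treated, so all 3 treated libraries lay below the untreated ones, with replicate 3 just below. On the deposited scale neither H2B gene was called and both overlapped. H4 genes took 81 ± 15 and 82 ± 25, and 94 ± 3.3 and 85 ± 9.0. The H2A genes went from 13.0 ± 4.8 to 21.5 ± 3.4 in PRC1CKO and from 17.7 ± 4.2 to 21.3 ± 4.6 in PRC1CPM. Hist1h2aa was the larger part in every condition but untreated PRC1CKO, where its mean of 135 normalised reads lay beside 139 for Hist2h2ab. All 9 genes together took 490 to 708 RPM across the 12 libraries, and treated and untreated libraries overlapped in both lines. In bulk cultures fewer cells of a type, such as cells in S phase, and less RNA per cell cannot be told apart.

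The lines were also compared at each treatment. Untreated PRC1CPM exceeded untreated PRC1CKO in no histone gene by the limma call (0 of 9, with 2 at an unadjusted p under 0.05 and 0 by edgeR and DESeq2), against 2.21% of all genes higher and 0.478% lower. With the replicate block 1 histone gene was called, Hist1h2aa, beside 1631 higher and 253 lower genes in place of 374 and 81. Of the calls without the block 82.2% were higher, or 46.4% on Drosophila totals alone and 71.0% under TMM. Hist1h2aa had the highest log2 difference at 1.02 and Hist1h1b the lowest at -0.06. Hist4h4 had the second highest at 0.57 ± 0.26 SE (adjusted p = 0.29), and reached 0.83 with adjusted p = 0.033 without untreated PRC1CKO replicate 1. Over the 9 other settings the Hist4h4 difference ran from 0.29 to 0.69, with a smallest adjusted p of 0.00094, and 0 of them called it. After OHT, 0 of 9 genes differed between the lines (0 at an unadjusted p under 0.05, 0 by edgeR and DESeq2), against 1.25% of all genes higher and 0.218% lower in PRC1CPM (212 and 37 genes, or 1131 and 232 with the replicate block). The share that was higher was 85.1%, or 66.8% under TMM and 95.6% on Drosophila totals alone. The log2 differences after OHT ran from -0.09 for Hist1h1t to 0.22 for Hist4h4. Their signs turned with the scaling: 3 of 9 were below 0, or 8 under TMM (median -0.08) and 0 on Drosophila totals alone (median 0.19), and between the untreated lines 2 were, or 4 and 6. The interaction, which asks whether the OHT response differed between lines, called 0 of 9 histone genes (0 at an unadjusted p under 0.05, 0 by edgeR and DESeq2), against 0% of all genes higher and 0.0236% lower at an adjusted p under 0.05. With the replicate block it called Hist1h2aa. It ran from -0.94 for Hist1h2aa to 0.03 for Hist1h1a, with 7 of 9 below 0. On Drosophila totals alone 1 of 9 was below 0, the median of the 9 being 0.33 in place of -0.11 and that of all genes 0.43 in place of -0.02. These comparisons share libraries with the OHT comparisons.

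**Figure D4:**
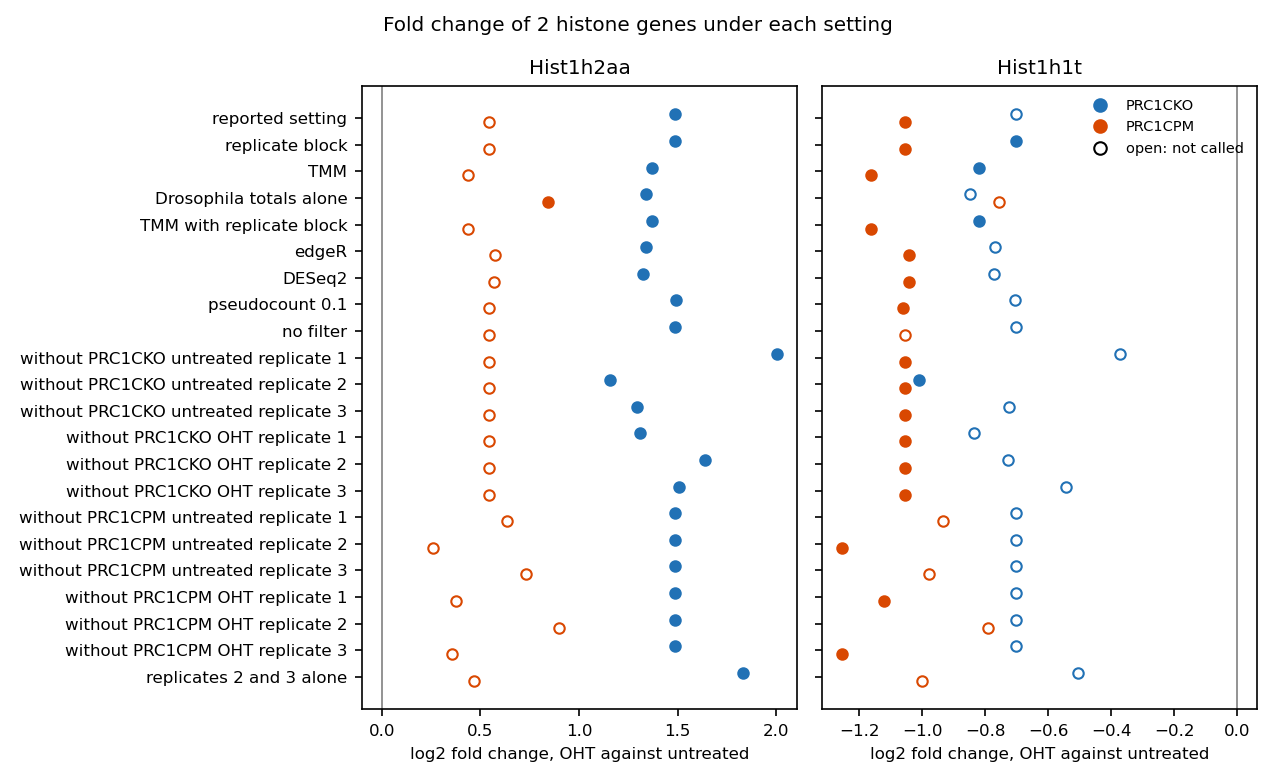
Log2 fold change on OHT (horizontal axis) of Hist1h2aa (left) and Hist1h1t (right) under each setting of the analysis (vertical axis), in PRC1CKO (blue) and PRC1CPM (orange), with filled points called and open points not. Hist1h2aa in PRC1CKO is filled in every row, and Hist1h1t in PRC1CPM loses the call in 6 rows.

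The machinery that makes and packages histone messages was taken from lists of known genes. Of 16 genes for histone gene transcription and 3' end processing, 0 were called by limma in either line (0 at an unadjusted p under 0.05, 0 by edgeR and DESeq2), with medians of -0.04 and -0.05 on the log2 scale. Over all genes tested, 16.5% were called higher and 3.09% lower in PRC1CKO, and 13.1% and 1.4% in PRC1CPM. Slbp, the stem-loop binding protein, had 1777, 1210 and 1288 normalised reads untreated and 1527, 1406 and 1698 treated in PRC1CKO. In PRC1CPM the Slbp values were 1507, 1161 and 1303 against 1912, 1290 and 1974 (log2 0.36, adjusted p = 0.37). On Drosophila totals alone the Slbp change in PRC1CPM was called at 0.66. Npat, the transcriptional activator of the clusters, changed by -0.15 and -0.14 (adjusted p = 0.73 and 0.83). Of 13 histone chaperone genes, which carry new histones to DNA, 0 were called by limma in either line (0 at an unadjusted p under 0.05, 0 by edgeR and DESeq2). The shares of all genes were again 16.5% higher and 3.09% lower in PRC1CKO, and 13.1% and 1.4% in PRC1CPM.

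Replacement histones are made through the cell cycle from genes outside the clusters, mostly with poly(A) tails. Of 11 tested, 1 was called higher and 2 lower in PRC1CKO (16.5% and 3.09% of all genes), and 0 in PRC1CPM (1 at an unadjusted p under 0.05, 0 by edgeR and DESeq2), where 13.1% and 1.4% of all genes were called. Both that were lower encode linker histones. H1f0, the H1 variant of slowly dividing and differentiated cells, had 2470, 1391 and 1526 normalised reads untreated and 1179, 1014 and 1025 treated in PRC1CKO (log2 -0.70, adjusted p = 0.033). H1fx had 1205, 567 and 711 untreated and 439, 475 and 448 treated (log2 -0.79, adjusted p = 0.019). In neither gene did the groups overlap. In PRC1CPM the log2 values were -0.30 for H1f0 and -0.11 for H1fx, with limma adjusted p of 0.57 and 0.90. Over the 9 other settings the smallest adjusted p in PRC1CPM was 0.00092 for H1f0 and 0.19 for H1fx. The H1f0 log2 change there ran from -0.41 to -3.2e-05, and 0 of the 9 settings called either gene. H2bfm, listed at 0 in 2 of the 3 untreated PRC1CKO libraries, had 7.2, 9.3 and 5.2 treated. The H1f0 call was lost without untreated PRC1CKO replicate 1 (log2 -0.45, adjusted p = 0.19), treated replicate 2 (-0.66, adjusted p = 0.098) or treated replicate 3 (-0.67, adjusted p = 0.0985), and with no filter (-0.70, adjusted p = 0.061). The H1fx call was lost without untreated PRC1CKO replicate 1 (log2 -0.48, adjusted p = 0.16), treated replicate 1 (-0.77, adjusted p = 0.062) or treated replicate 3 (-0.78, adjusted p = 0.058). Among the libraries left out in these lost calls, untreated replicate 1 moved the log2 change most for both genes. The H2bfm call was lost by edgeR and DESeq2 and without untreated PRC1CKO replicate 1 (log2 2.00, adjusted p = 0.054), untreated replicate 3 (2.00, adjusted p = 0.093) or treated replicate 2 (2.17, adjusted p = 0.072). With replicates 2 and 3 alone, 0 of the 11 genes were called in PRC1CKO.

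Cell cycle genes were mostly uncalled. Of 26 S phase and DNA replication genes, 0 were called higher and 1 lower by limma in PRC1CKO, and 0 in PRC1CPM (1 at an unadjusted p under 0.05, 0 by edgeR and DESeq2), with medians of -0.11 and -0.08. The 1 of 26 called lower is near the 3.09% of all genes called lower in PRC1CKO. E2f1, a transcription factor of S phase entry, was the one called, at 1378, 788 and 1024 normalised reads untreated against 648, 616 and 607 treated in PRC1CKO (log2 -0.73, adjusted p = 0.029). The E2f1 call was lost without untreated replicate 1 (log2 -0.53, adjusted p = 0.13), untreated replicate 3 (-0.74, adjusted p = 0.082), or treated replicate 1 (-0.76, adjusted p = 0.058), 2 (-0.72, adjusted p = 0.075) or 3 (-0.71, adjusted p = 0.085), with no filter on low values (-0.73, adjusted p = 0.051), and with replicates 2 and 3 alone (-0.55, adjusted p = 0.11). Of 12 G2 and M phase genes, 0 were called by limma in either line (0 at an unadjusted p under 0.05, 0 by edgeR and DESeq2). Over all genes tested, 16.5% were called higher and 3.09% lower in PRC1CKO, and 13.1% and 1.4% in PRC1CPM. Against the same shares of all genes, 0 of 5 other transcripts without a poly(A) tail or with an unusual 3' end, such as Malat1 and Terc, were called in either line (0 at an unadjusted p under 0.05, 0 by edgeR and DESeq2). Pcna was not analysed here.

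**Figure D5:**
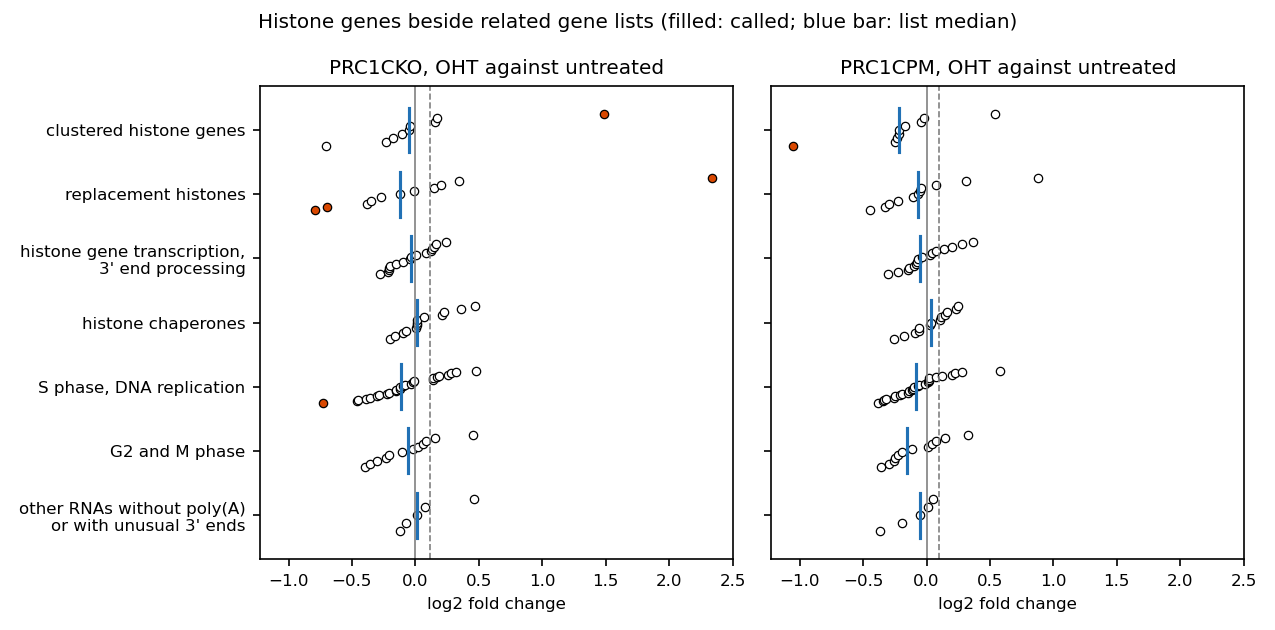
Log2 fold change on OHT (horizontal axis) of each tested gene of the clustered histone set and of 6 related lists (rows) in PRC1CKO (left) and PRC1CPM (right). Filled points were called, blue bars are list medians and the dashed line is the median of all genes tested. The list medians lie between -0.22 and 0.03, and the called genes are Hist1h2aa, H2bfm, H1f0, H1fx and E2f1 in PRC1CKO and Hist1h1t in PRC1CPM.

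The cells were checked against markers. All 8 ESC markers in the table were present in every condition, Tdgf1 being the most abundant, and their summed level was 86513, 55452 and 62257 normalised reads in untreated PRC1CKO and 51471, 49374 and 57057 after OHT. In PRC1CPM it was 72478, 50295 and 64314 against 67177, 38066 and 65722. Sox2 and Utf1 were called lower in PRC1CKO (log2 -0.89 and -0.79, adjusted p = 0.00051 and 0.0064), where 3.09% of all genes were, and 0 of 8 were called in PRC1CPM (1 at an unadjusted p under 0.05, 0 by edgeR and DESeq2), where 1.4% were lower.

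Some lineage genes were called higher in both lines, where 16.5% of all genes tested were called higher in PRC1CKO and 13.1% in PRC1CPM. Of 6 extraembryonic endoderm markers tested, 4 were called higher in PRC1CKO and 5 in PRC1CPM, with Gata6 at the largest log2 change in PRC1CKO (2.96) and Foxa2 in PRC1CPM (2.87). Gata6 went from 262, 128 and 79 to 1361, 1029 and 914 normalised reads in PRC1CKO. Lama1 was not called in either line (log2 -0.28 and -0.14). Their summed level, mostly Lama1, was 8611, 4941 and 4458 against 7886, 6009 and 5903 in PRC1CKO, and 6070, 4651 and 5420 against 7024, 4168 and 6326 in PRC1CPM. Of 6 neural markers, 4 were called higher and 1 lower in PRC1CKO, and 3 higher in PRC1CPM. The one called lower was Tubb3 (log2 -0.71, adjusted p = 0.037), a call lost without untreated PRC1CKO replicates 1 (adjusted p = 0.12) or 3 (0.052), treated replicates 1 (0.068), 2 (0.19) or 3 (0.085), or untreated PRC1CPM replicate 3 (0.05036), and with replicates 2 and 3 alone (-0.61, adjusted p = 0.073). Their sum was 3562, 2314 and 2013 against 4613, 3878 and 4223 in PRC1CKO, and 2901, 2664 and 2223 against 4682, 3087 and 2905 in PRC1CPM, with Map2 the most abundant after OHT. Pax6 had 51, 28 and 12 normalised reads against 206, 226 and 234 in PRC1CKO, and its call in PRC1CPM (log2 1.28, adjusted p = 0.015) was lost without untreated PRC1CPM replicate 1 (1.07, adjusted p = 0.056) and with replicates 2 and 3 alone (1.05, adjusted p = 0.072). Neurog2, a neurogenic transcription factor, was near 0 untreated, at 0, 1.5 and 0 normalised reads against 10.9, 11.1 and 3.5 in PRC1CKO (log2 2.66, adjusted p = 0.011), and at 1.3, 0 and 2.7 against 19.3, 4.6 and 13.1 in PRC1CPM (2.53, adjusted p = 0.022). Its PRC1CKO call was lost without untreated replicate 3 (adjusted p = 0.05026) or treated replicates 1 (0.067) or 2 (0.066), and its PRC1CPM call without untreated replicate 2 (0.11) or treated replicates 1 (0.17) or 3 (0.089) and with a pseudocount of 0.1 (0.115). Of 5 mesoderm markers tested, 3 were called higher in each line by limma, and by DESeq2 2 in PRC1CKO and 1 in PRC1CPM. Hand1, of the early mesoderm, changed most, by 2.68 and 1.97 on the log2 scale, and Tbx6 was not called (-0.61 and -0.62). The Hand1 call in PRC1CPM was lost by DESeq2 (1.85, adjusted p = 0.071). T (Brachyury), a transcription factor of the primitive streak, was called in both lines (log2 1.88 and 1.51, adjusted p = 0.0012 and 0.015), although treated and untreated libraries overlapped in both. DESeq2 did not call T in either line (adjusted p = 0.25 and 0.31). By limma its PRC1CKO call was lost without untreated replicate 3 (adjusted p = 0.064), and its PRC1CPM call without untreated replicate 3 (0.13) or treated replicate 1 (0.15) and with no filter (0.087). The mesoderm sum was 398, 160 and 167 against 725, 457 and 502 in PRC1CKO, and 414, 205 and 218 against 883, 408 and 602 in PRC1CPM. Of 5 fibroblast markers tested, Thy1 was called higher and Postn lower in PRC1CKO, with adjusted p = 0.039 and 0.019, and 0 were called in PRC1CPM (1 at an unadjusted p under 0.05, 1 by edgeR and 0 by DESeq2). The Postn call was lost without untreated PRC1CKO replicate 1 (log2 -1.42, adjusted p = 0.17) or treated replicate 3 (-1.25, adjusted p = 0.26) and with replicates 2 and 3 alone (-2.06, adjusted p = 0.083), and the Thy1 call without any 1 of 7 libraries, namely untreated PRC1CKO replicates 2 and 3 (adjusted p = 0.16 and 0.12), the treated PRC1CKO replicates 1, 2 and 3 (0.099, 0.15 and 0.11) and replicate 3 of untreated and treated PRC1CPM (0.054 and 0.056). Thy1 was also not called under TMM, with or without the block (log2 0.53, below the fold threshold), or on Drosophila totals alone (0.50, adjusted p = 0.23). The fibroblast sum, mostly Col1a1, was 5704, 2039 and 2676 against 3938, 3128 and 3496 in PRC1CKO, and 14509, 3717 and 4633 against 14757, 4510 and 6201 in PRC1CPM. In each condition 0 or 1 gene of that list was at 0 in all libraries, and 0 genes of the other marker lists were. Markers also differed between the lines by limma. Untreated, Col1a2 was called higher in PRC1CPM (log2 1.38, adjusted p = 0.0081) and Sox1 lower (-1.40, adjusted p = 0.020). After OHT, Col1a1 was called higher in PRC1CPM (1.44, adjusted p = 0.020) and Gata6 lower (-1.78, adjusted p = 0.00039). DESeq2 called 0 fibroblast markers in either of these comparisons. The part of these cell types in the histone gene changes and line differences was not tested.

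Genes near the histone genes were examined in the same fit. Within 100 kb of any member lay 21 other genes of the table, of which 13 were tested. In PRC1CKO 2 were called higher and 0 lower by limma, and likewise 2 and 0 in PRC1CPM, with edgeR and DESeq2 calling 2 in each line. Over all genes tested 16.5% and 13.1% were called higher, so 2 of 13 is near the background. Btn2a2, a butyrophilin gene 94813 bases from Hist1h2be, was called in both (log2 0.97 and 1.63). Its call in PRC1CKO was lost without untreated replicates 2 (adjusted p = 0.10) or 3 (0.082), or treated replicates 1 (0.14) or 2 (0.055), on Drosophila totals alone (0.090) and with no filter (0.054). The tested gene nearest Hist1h2aa was Lrrc16a, 77571 bases away, with 0.62 (adjusted p = 0.036) in PRC1CKO and 0.41 (adjusted p = 0.27) in PRC1CPM. The former call was lost without untreated PRC1CKO replicate 3 (0.40, adjusted p = 0.34) or treated replicates 1 (0.51, adjusted p = 0.22) or 3 (0.64, adjusted p = 0.086), on Drosophila totals alone (0.47, adjusted p = 0.23), and under TMM with or without the block (0.50, below the fold threshold). These neighbours were picked for description after their values were seen. The nearest genes of the table on either side of Hist1h2aa, Scgn and Slc17a4 at 18544 and 19455 bases, had too few reads to be tested, and the nearer H2bc1 was not analysed here. The gene next to Hist1h1t in the table, Hfe at 7296 bases, was not called in either line (log2 0.58 and 0.31). Art4, 44020 bases from Hist4h4, was the other call in PRC1CPM, at 0, 3.8 and 2.7 normalised reads untreated and 22.2, 19.3 and 16.4 after OHT.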

How the data were processed

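RNA was measured in 12 libraries, and 12 genomic DNA samples of the series were not analysed here. Following the authors' methods, reads were filtered for ribosomal DNA with Bowtie 2, mapped with STAR and Bowtie 2 to mm10 and dm6, stripped of duplicates and counted over the gene bodies of a non-redundant RefSeq set. The deposited values are a normalised signal per gene: each library's reads divided by a spike-in size factor that the authors estimated with DESeq2 on dm6 reads and adjusted with genomic DNA sequencing. The authors' log2 fold change and p-value columns hold their own comparisons and were not used, and a further deposited score is the transcript span in bases. Dividing by the smallest step recovered whole reads for 100% of values (tolerance 0.02), which edgeR and DESeq2 used as alternatives.

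The main test was limma 3.58.1 (R 4.3.3) on log2(normalised read count + 1), with 1 mean per condition and all 12 libraries in the fit. A row entered the test if 3 or more libraries held 10 or more reads (16940 rows), and the fit adjusted p-values over these by the Benjamini-Hochberg method. Fold changes are on that scale. edgeR 4.0.16 and DESeq2 1.42.0 were alternatives, with TMM scaling, Drosophila totals, a replicate block, a pseudocount of 0.1, no filter and each library left out. Keeping replicates 2 and 3 alone was added after seeing the data. Same-numbered libraries deviated together: in PRC1CPM, between untreated lines and between treated lines all 3 pairs correlated above 0.1, while in PRC1CKO the lowest of 3 was 0.0988, so the numbers were taken to pair samples in the first 3 comparisons only. The pairing comes from the data and not from the labels. The fit was tested on simulated data, and no result of that is reported here. Named genes were the 3 most abundant members per kb of each type, the ends of the range and the called members in each comparison, the 2 largest called rises and falls of each list, Slbp, Npat, Pcna, Ring1, Rnf2 and divergent pairs. Members and lists were chosen with earlier results of these data known. Sequences are from RefSeq (GRCm38.p6), where 8 of 9 promoters were matched.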

Additional observations from a re-analysis of the deposited data

How the results depend on the processing

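The number of clustered histone genes called in PRC1CKO was 1, and 2 with the replicate block, under TMM and under TMM with the replicate block, the added gene being Hist1h1t. Leaving out single libraries gave 1 to 2. In PRC1CPM the number was 1, and 0 with no filter and with replicates 2 and 3 alone, with 0 to 1 on leaving out single libraries. On Drosophila totals alone it was also 1, but the gene was Hist1h2aa in place of Hist1h1t. The interaction gave 0, and 1 with the replicate block (Hist1h2aa, adjusted p = 0.024). The untreated lines gave 0, and 1 with the replicate block, TMM with the replicate block and replicates 2 and 3 alone (Hist1h2aa), with 0 to 2 on leaving out single libraries. The cause of these changes was not tested. The replicate block changed no other call of a clustered histone gene. With the block, calls among the replacement histones went from 1 to 2 between untreated lines and from 0 to 2 between treated lines.

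On Drosophila totals alone, the median of all genes was 0.40 in PRC1CPM, and log2 changes there turned positive for Hist1h1a (0.28), Hist2h2bb (0.082), Hist1h1b (0.048), Hist1h2be (0.080), Hist4h4 (0.13), Hist2h4 (0.25), Hist2h2ab (0.063), H1fx (0.19), Npat (0.16), Ring1 (0.094) and Rnf2 (0.13). On that scale Hist1h1t after OHT between lines was 0.073, and in PRC1CKO Rnf2 was -0.12 and Slbp -0.014. Rnf2 in PRC1CKO was -0.092 under TMM and -0.092 under TMM with the replicate block. With replicates 2 and 3 alone, PRC1CKO values turned for Hist1h1a (0.10), Hist1h2be (0.069), Hist2h2ab (0.092) and Npat (0.025), PRC1CPM values for Hist1h1a (0.055) and Hist2h4 (0.017), the interaction of Hist1h1a (-0.043) and the untreated difference of Hist1h1b (0.14).

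Leaving out single libraries, uncalled log2 values crossed 0 in PRC1CKO for Hist1h1a (-0.23 to 0.21), Hist1h1b (-0.44 to 0.083), Hist1h2be (-0.31 to 0.21), Hist2h2ab (-0.42 to 0.21), Hist2h2bb (-0.046 to 0.40), Hist2h4 (-0.25 to 0.20), Hist4h4 (-0.14 to 0.44) and Rnf2 (-0.039 to 0.13). They did so in PRC1CPM for Hist1h1a (-0.18 to 0.19), Hist2h4 (-0.18 to 0.13), H1fx (-0.25 to 0.087) and Npat (-0.25 to 0.0077). The same held for the interaction of Hist1h1a (-0.23 to 0.24), for Hist1h1b between untreated lines (-0.27 to 0.25), and after OHT between lines for Hist1h1t (-0.29 to 0.17) and Hist4h4 (-0.025 to 0.54).

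Over all genes, calls higher and lower between untreated lines went from 374 and 81 to 1631 and 253 with the replicate block and 745 and 305 under TMM, and between treated lines from 212 and 37 to 1131 and 232 and to 524 and 261. Of the marker lists, in PRC1CPM mesoderm went from 3 calls to 1 by DESeq2, neural from 3 to 1 with replicates 2 and 3 alone, and ESC markers from 0 to 2 on Drosophila totals alone. In PRC1CKO neural went from 5 to 3 with replicates 2 and 3 alone, and fibroblast from 2 to 1 there and under TMM. In PRC1CPM fibroblast went from 0 to 1 by edgeR, under TMM, on Drosophila totals alone and with the block. With replicates 2 and 3 alone, S phase genes went from 1 to 0 in PRC1CKO and from 0 to 1 in PRC1CPM, and G2 and M phase genes and other transcripts without a poly(A) tail each from 0 to 1 in PRC1CKO. On Drosophila totals alone, S phase genes and histone transcription and processing genes each went from 0 to 1 in PRC1CPM. Hist1h2aa and Hist1h1t rest on 94 to 464 reads per library.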
